A study of Mus musculus with 12 samples.

Results

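The cytosolic ribosomal protein genes encode the proteins of the small (40S) and large (60S) subunits of the ribosome, which translates the mRNAs of the nuclear genome. Members were chosen by gene symbol, as Rps or Rpl followed by a number and at most a short suffix, with Rplp0 to Rplp2 and Rpsa added, and with pseudogenes and the genes of the mitochondrial ribosome left out. Of the 21900 protein-coding genes of RefSeq on GRCm38, 84 fit this rule, 32 with an Rps name (40S) and 52 with an Rpl name (60S). They hold 34 of the 33622 m6A peaks listed for wild-type (WT) hippocampus, 48 of the 34935 peaks listed for Tyrobp-/- hippocampus and 16 of the 5640 rows of the authors' list comparing the genotypes. As a check of the names, the KEGG pathway Ribosome was attached to 28 of the 29 member genes in the WT list and to 33 of the 34 in the Tyrobp-/- list, and the exception in both was Rpl7l1.

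Ribosomal protein mRNAs are short, abundant and long-lived, and most carry a terminal oligopyrimidine (TOP) tract, an unbroken run of C and T that starts at the cap. Through this tract and the RNA-binding protein Larp1, mTOR signalling raises or lowers their translation together. N6-methyladenosine (m6A) is a methyl mark that the Mettl3 and Mettl14 complex writes on adenosines of mRNA, mostly near stop codons and in 3′ UTRs and long internal exons. Many ribosomal protein genes also carry small nucleolar RNAs in their introns, and their mRNAs have left many processed pseudogenes in the mouse genome, so that some of their reads can be placed at more than 1 locus.

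RNA came from the hippocampus of male C57BL/6 mice aged 6 months. The control group was wild-type littermates, and the other was Tyrobp-/- mice, which carry a small germline deletion in Tyrobp made with TALENs and so lack the adaptor protein in all cells, microglia included. Each of the 3 samples per genotype pooled the RNA of 3 mice and gave an IP library, made from fragments of polyadenylated RNA pulled down with an m6A antibody, and an input library made without the antibody, 12 libraries in all. They held 61189368 to 73554506 valid reads. The peaks of a genotype were called on its 3 IP and 3 input libraries together, so each peak has 1 fold enrichment (IP over input) per genotype, no value per sample and no replicate error, and no difference between the genotypes can be tested. Neither list holds a row of Tyrobp, so the deletion could not be checked here. All of the 15 marker genes looked up for neurons, astrocytes, oligodendrocytes and microglia had a peak in both lists.

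Where a peak covered any of the first 50 bases of a member's transcript, the bases around that start are shown, because the TOP tract sits there. RefSeq promoter sequences (GRCm38) were at hand for 64 of the 84 members. The windows run from 10 bases before the start to the first 20 transcribed bases, 5′ to 3′ on the strand of the gene, and capitals mark each unbroken run of at least 5 C or T. In both genotypes a peak reached into the first 50 bases of Rpl34, Rpl13a and Rpl38. In Tyrobp-/- mice alone a peak reached into those of Rps6, Rpl11, Rpl41 and Rpl7l1. Their folds were 4.76, 6.67, 1.97 and 1.48 in this order, at log10 p-values of -2.94, -1.39, -2.37 and -10.0. Such peaks were not counted over all protein-coding genes, and a difference between the genotypes was not tested. Of these 50 bases the WT peak of Rpl38 covered 21, and the Tyrobp-/- peak covered 20 at the upstream start of Rpl34. In Tyrobp-/- mice 5 were covered in Rps6, 14 in Rpl41, 38 in Rpl7l1 and 46 in Rpl11. The other peaks covered all 50. The windows below are therefore not all within a peak.
Rpl34, upstream start, minus strand, chr3:130730379-130730408: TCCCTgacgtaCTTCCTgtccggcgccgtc
Rpl34, downstream start, minus strand, chr3:130730318-130730347: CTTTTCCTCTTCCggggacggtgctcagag
Rpl13a, minus strand, chr7:45128726-45128755: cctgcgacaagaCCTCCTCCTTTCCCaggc
Rpl38, plus strand, chr11:114668570-114668599: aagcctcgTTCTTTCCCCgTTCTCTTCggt
Rps6, minus strand, chr4:86857348-86857377: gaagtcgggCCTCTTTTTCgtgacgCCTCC
Rpl11, minus strand, chr4:136053374-136053403: ccataaggccacggggccggaagTCTCCCT
Rpl41, minus strand, chr10:128549149-128549178: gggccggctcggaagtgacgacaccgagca
Rpl7l1, minus strand, chr17:46782637-46782666: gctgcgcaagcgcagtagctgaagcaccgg

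Runs of 8 or more pyrimidines spanned or followed the start in Rpl34, Rpl13a, Rpl38 and Rps6, whereas the windows of Rpl41 and of the paralog Rpl7l1 held no run of 5. Among all 64 members with a sequence, 38 (59.4%) had a run of at least 5 C or T between 5 bases before and 15 bases after a start, against 37.9% of 17492 protein-coding genes and 40.6% of 69 mitochondrial ribosomal protein genes. A stricter form, a C at the annotated first base followed by at least 4 further C or T, was present in 14 members (21.9%) and in 2.67% of all genes, and in 0 of the 69 mitochondrial genes. The letters GGAC, a frequent form of the m6A consensus, stood on the transcript strand within the first 50 bases in 9 of the 64 members (14.1%) and in 22.9% of all genes. Among the starts shown, only the downstream start of Rpl34 had it, once. RefSeq starts can lie some bases from the start used in hippocampus, so a missing run says only that these letters are not in this window.

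A smaller share of the cytosolic ribosomal protein genes than of all protein-coding genes had a peak. In WT hippocampus 29 of 84 members had at least 1 listed peak, which is 34.5% (exact 95% interval 24.5% to 45.7%), while 56.8% of all protein-coding genes had one. In Tyrobp-/- hippocampus the count was 34 of 84, or 40.5% (29.9% to 51.8%), against 58.2% of all protein-coding genes. Of the genes of the mitochondrial ribosome, 65 of 78 (83.3%) had a peak in WT and 67 of 78 (85.9%) in Tyrobp-/- mice. The intervals cover counting error only. The shares of all protein-coding genes are over 21900 genes, with no filter for expression in hippocampus. Cytosolic members also span less of the genome, with a median of 3179 bp against 7690 bp for mitochondrial members and 17150 bp for all genes, and the part of gene length in the counts was not tested. Among the members themselves, the 39 with a peak in either list had a median span of 3572 bp and the 45 with none 2895 bp.

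**Figure D1:**
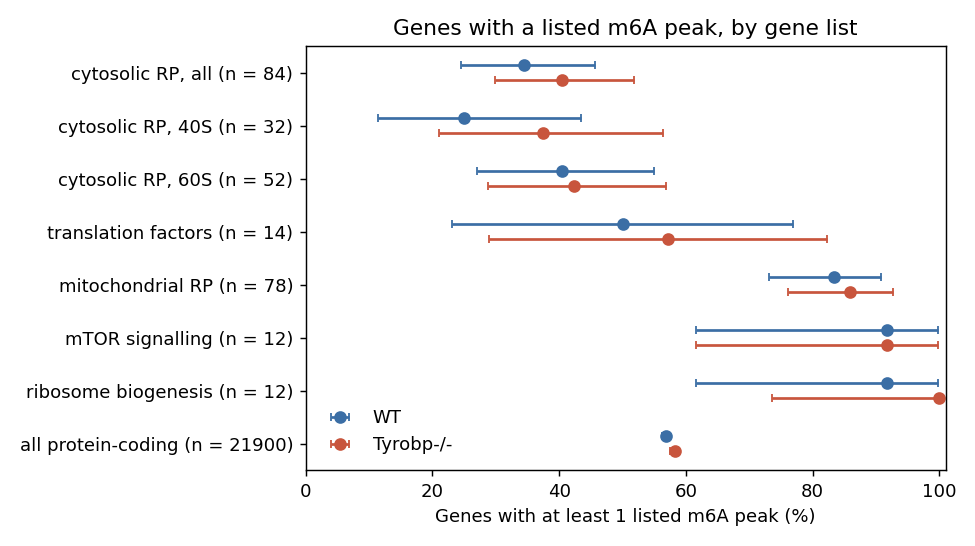
Share of genes with at least 1 listed m6A peak (x axis, percent) for each gene list (y axis), in WT (blue) and Tyrobp-/- (red) hippocampus, with exact 95% binomial intervals as bars. Cytosolic ribosomal protein (RP) genes lie at 34.5% and 40.5%, below all protein-coding genes at 56.8% and 58.2%, and mitochondrial ones at 83.3% and 85.9%.

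By subunit, 8 of 32 small and 21 of 52 large subunit genes were listed in WT hippocampus. These are 25.0% and 40.4%, and in Tyrobp-/- hippocampus the counts were 12 (37.5%) and 22 (42.3%). The exact intervals of the subunits overlap in both genotypes (11.5% to 43.4% and 27.0% to 54.9% in WT), and a difference between the subunits was not tested. Both lists held 24 of the 84 members (28.6%, against 53.0% of all protein-coding genes). The WT list alone held 5 members (5.95%, against 3.83%), among them Rpl3, Rpl32, Rps18 and Rps20. The WT peak of Rpl3 lay upstream of the gene and overlapped a Tyrobp-/- peak listed under Syngr1. That site thus had a row in both lists, under different names. The Tyrobp-/- list alone held 10 (11.9%, against 5.13%), which were Rpl3l, Rpl19, Rpl22l1, Rpl23, Rps3a1, Rps6, Rps7, Rps23, Rps25 and Rps27.

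The 45 members without a row in either list include the whole P-stalk, Rplp0, Rplp1 and Rplp2, which recruits elongation factors to the large subunit. From the small subunit they included Rps2, Rps4x, Rps9, Rps12, Rps13, Rps14, Rps15, Rps16, Rps19, Rps21, Rps26, Rps27a, Rps27l, Rps28 and Rps29. From the large subunit they were, beside the P-stalk, Rpl5, Rpl6, Rpl7, Rpl7a, Rpl8, Rpl9, Rpl10, Rpl10a, Rpl10l, Rpl13, Rpl17, Rpl18, Rpl22, Rpl23a, Rpl24, Rpl27, Rpl31, Rpl32l, Rpl35, Rpl35a, Rpl37, Rpl37a, Rpl39 and Rpl39l. A missing row means only that no peak was listed under that gene's name. Peaks at some of these loci were listed under a neighbouring or nested gene, as described further on for Rpl5, Rpl18, Rps2 and Rps12. The weakest listed log10 p-value was -1.30 in both lists, so a missing row does not show that m6A was absent.

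Where members did have a peak, its enrichment was low. The median fold enrichment of the 34 WT peaks was 2.34 (95% interval of the median 2.00 to 4.27) and that of the 48 Tyrobp-/- peaks was 2.57 (2.08 to 3.02). Over all peaks the medians were 5.54 and 5.72, and over the peaks of mitochondrial ribosomal protein genes they were 4.8 and 4.97. Of the member peaks, 10 of 34 (29.4%) in WT and 16 of 48 (33.3%) in Tyrobp-/- mice were below 2-fold, against 9.56% and 8.42% of all peaks. At the other end, 1 member peak in each list reached 10-fold, that is 2.94% and 2.08%, whereas 21.8% and 22.0% of all peaks did. The medians by subunit were close, at 2.21 (9 peaks) for 40S and 2.38 (25 peaks) for 60S in WT, and 2.63 (16 peaks) and 2.49 (32 peaks) in Tyrobp-/- mice.

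**Figure D2:**
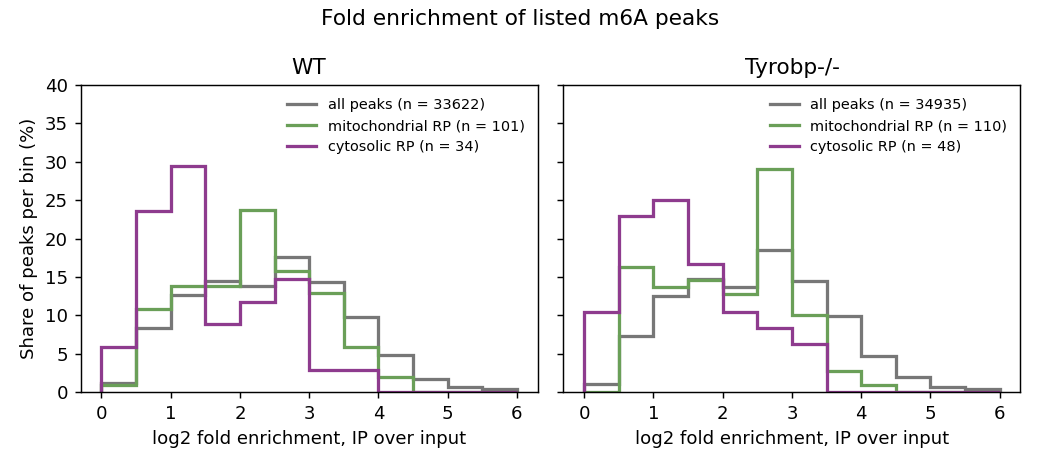
Distribution of fold enrichment of IP over input (x axis, log2, in bins of 0.5) as the share of peaks per bin (y axis, percent) in WT (left) and Tyrobp-/- (right), for all peaks, mitochondrial and cytosolic ribosomal protein genes. The fullest bin of the cytosolic members starts at a log2 value of 1 in both genotypes, left of that of all peaks.

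Many of these low folds came with very small peak-calling p-values. A log10 p-value of -100 or below was reached by 10 of the 34 WT peaks (29.4%) and 12 of the 48 Tyrobp-/- peaks (25.0%), close to the 24.3% and 23.0% of all peaks. At that strength the median fold enrichment was 2.44 in WT and 2.60 in Tyrobp-/- members, against 8.33 and 8.37 over all peaks and 5.96 and 6.55 over mitochondrial ribosomal protein genes. The p-value of a peak depends on its reads as well as on its fold, and reads per peak were not among the values used here.

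The most extreme p-value of any member belonged to Rpl41, which encodes a very short basic peptide of the large subunit. Its 3′ UTR peak (chromosome 10, 128548114 to 128548617 in WT, minus strand) had a fold enrichment of 3.09 and a log10 p-value of -2710 in WT, and 2.89 and -2120 in Tyrobp-/- mice. Rpl4, a protein that lines the peptide exit tunnel, had 2.49-fold enrichment in WT and 2.90-fold in Tyrobp-/- mice at the end of its gene (chromosome 9, 64178307 to 64178516 in WT), with log10 p-values of -1050 and -1270. The log2 ratio of Tyrobp-/- over WT was -0.10 for Rpl41 and 0.22 for Rpl4.

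Rpl21 followed with 2.38 in WT and 2.59 in Tyrobp-/- mice, and Rpl29 with 2.79 and 3.08. Rpsa, a small subunit protein also known as the laminin receptor, had a 3′ UTR peak (chromosome 9, 120131148 to 120131592 in WT) with 2.21-fold enrichment in WT and 2.28-fold in Tyrobp-/- mice. Rpl36 had 2.00 and 2.55, and the 3′ UTR peak of Rpl26, which lies at the exit of the peptide tunnel, 1.87 and 2.60. In all of these the WT value lay between 1.87 and 3.09 and the Tyrobp-/- value between 2.28 and 3.08.

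**Figure D3:**
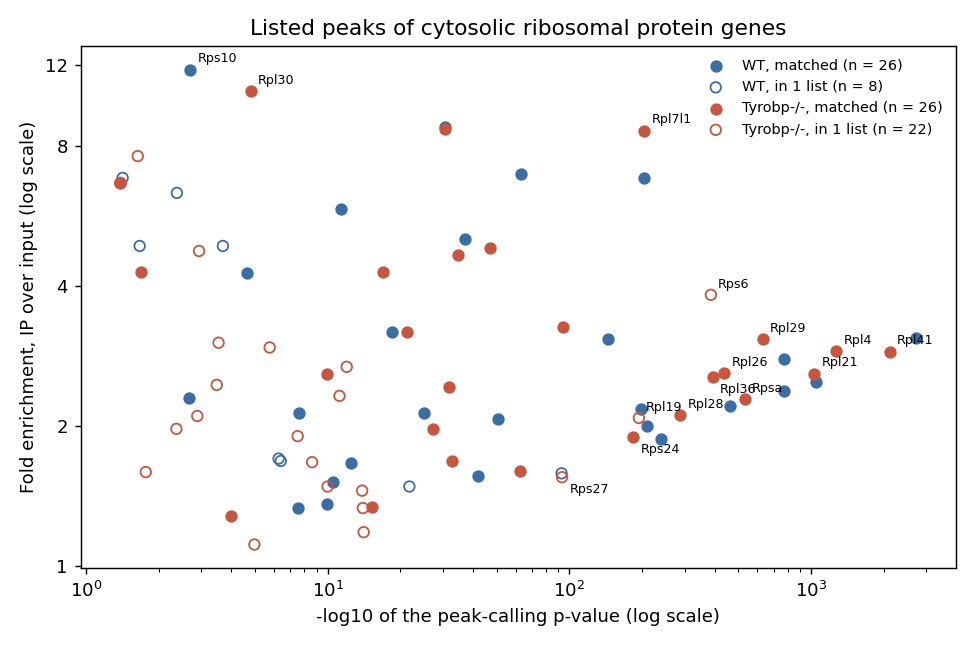
Fold enrichment of IP over input (y axis, log scale) against −log10 of the peak-calling p-value (x axis, log scale) for all 82 listed member peaks. Filled points were matched between WT (blue) and Tyrobp-/- (red), and open points had no partner in the other list, among them Rps6 at 3.83-fold and Rpl19 at 2.08-fold in Tyrobp-/- mice. Beyond 100 on the x axis, all points except those of Rpl7l1 lie between 1.87-fold and 3.83-fold.

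Most of the members' peaks lay at the 3′ and 5′ ends of the genes, and the 3′ shares in the full lists were near those of all peaks. The authors' annotation put 16 of 34 WT peaks in 3′ UTRs, 47.1% (exact 95% interval 29.8% to 64.9%), and 25 of 48 Tyrobp-/- peaks, 52.1% (37.2% to 66.7%). Over all peaks the shares were 47.2% and 49.3%, and over mitochondrial ribosomal protein genes 66.3% and 66.4%. In 5′ UTRs it put 12 of 34 WT peaks, 35.3% (19.8% to 53.5%), and 12 of 48 Tyrobp-/- peaks, 25.0% (13.6% to 39.6%), while 18.9% and 17.3% of all peaks were there. First exons held 2 WT and 5 Tyrobp-/- member peaks, and other exons 4 and 6. Exons other than the first held 11.8% and 12.5% of member peaks against 22.4% and 21.7% of all peaks.

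The median enrichment differed between these classes. Member peaks in 5′ UTRs had a median of 3.59 in WT and 2.81 in Tyrobp-/- mice, and those in 3′ UTRs 2.17 and 2.55. Over all peaks the 5′ UTR medians were 5.86 and 6.06 and the 3′ UTR medians 5.20 and 5.28. Of the 12 member peaks called 5′ UTR in each genotype, 6 had their midpoint upstream of the RefSeq gene, where another gene can overlap them.

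Within the RefSeq span of the gene, introns included, 12 of 25 WT peaks (48.0%) and 22 of 39 Tyrobp-/- peaks (56.4%) had their midpoint in the last 20%, and 8 (32%) and 10 (25.6%) in the first 20%. Of the peaks of all protein-coding genes, the last 20% held 53.7% in WT and 55.6% in Tyrobp-/- mice, and the first 20% held 18.7% and 17.8%. Outside the span lay 9 member peaks in each genotype. Inside the span the share was 73.5% in WT and 81.2% in Tyrobp-/- mice, compared with 93.5% and 93.1% for the peaks of all protein-coding genes.

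**Figure D4:**
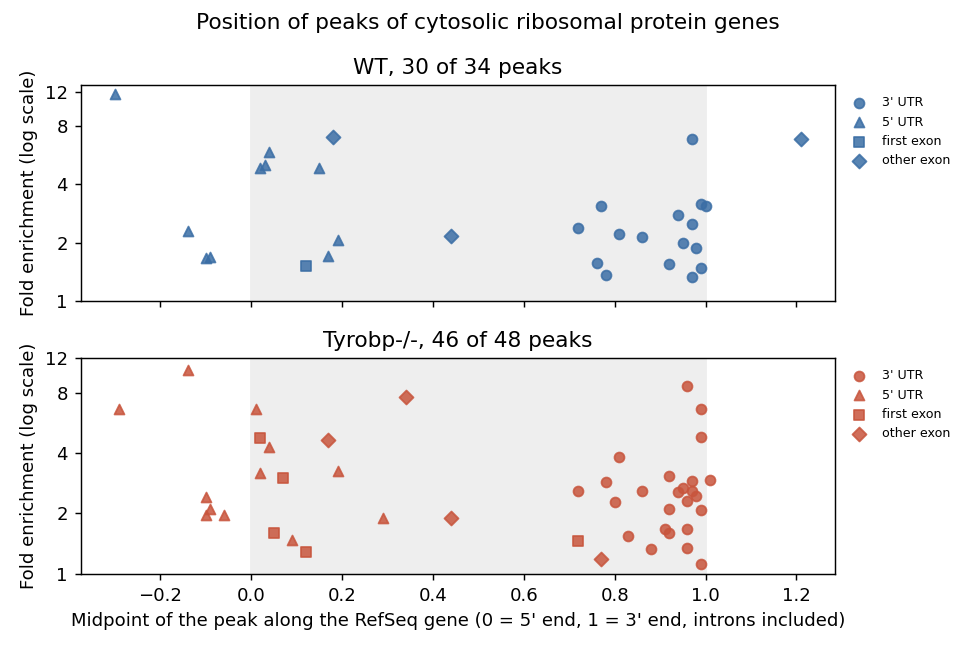
Midpoint of each member peak along its RefSeq gene (x axis, 0 the 5′ end and 1 the 3′ end, grey band the gene) against fold enrichment of IP over input (y axis, log scale) in WT (top) and Tyrobp-/- (bottom), with the annotated class as the symbol. The plot holds 30 of 34 WT and 46 of 48 Tyrobp-/- peaks, since those of Rpl3, Rpl11, Rpl26 and Rpl15 that lie farther out are not drawn. Peaks sit near the 2 ends, with few in the middle.

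The highest folds were mostly at such outlying places or rested on weak p-values. In WT, the first was Rps10, a small subunit protein that is ubiquitinated when ribosomes collide, with 11.7-fold enrichment at a log10 p-value of -2.71 (chromosome 17, 27635403 to 27636868). Its midpoint lay 1460 bp upstream of Rps10, and its exonic blocks overlapped the long non-coding RNA gene Gm15420. Next came a peak of Rpl26 with 8.79-fold enrichment, 2308 bp downstream of the gene, at a log10 p-value of -30.7. Rpl7l1 had 6.85-fold enrichment inside its gene at -204.

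Further WT folds among the 10 highest were 6.84 for Rpl12 (491 bp downstream), 6.35 for Rpl3 (8432 bp upstream, over Syngr1), 5.86 for Rpl34, 5.06 for Rpl13a, and 4.88 for both Rps20 and Rpl32. Rpl34, Rpl13a, Rps20 and Rpl32 had these peaks in their 5′ UTRs, the first and the second at the starts shown above. Rpl13a is known for a second role as an inhibitor of translation in inflammation. Log10 p-values were -11.4 for Rpl34 and -36.9 for Rpl13a but -1.42 for Rpl12, -2.38 for Rpl3, -1.67 for Rps20 and -3.69 for Rpl32.

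In Tyrobp-/- mice the highest fold was that of Rpl30, at 10.5 with a log10 p-value of -4.81, in a peak 398 bp upstream of the gene (chromosome 15, 34443423 to 34443926). The downstream peak of Rpl26 followed at 8.70 and the 3′ UTR of Rpl7l1 at 8.65. Rps24, a gene mutated in Diamond-Blackfan anemia, had 7.62-fold enrichment in an exon at a log10 p-value of -1.64. Rpl3l, Rps10 and a 5′ UTR peak of Rpl11 all stood at 6.67 with a log10 p-value of -1.39. This pair of values recurred in 911 of the 34935 Tyrobp-/- rows (2.61%), as the pair of Rpl12 did in 835 WT rows (2.48%).

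Rps15a at 4.82 and a first-exon peak of Rps6 at 4.76 were also among the 10 highest in Tyrobp-/- mice. Of all member peaks, 2 of 34 in WT (5.88%) and 6 of 48 in Tyrobp-/- mice (12.5%) had a peak-calling FDR above 0.05, against 10.3% and 11.0% of all peaks.

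Between the genotypes, peaks of the same gene were matched where their exonic blocks shared at least 1 bp. This gave 26 member pairs, 76.5% of the WT and 54.2% of the Tyrobp-/- member peaks, against 70.2% and 67.5% of all peaks. The median log2 ratio of enrichment, Tyrobp-/- over WT, was 0.04 over the members (95% interval of the median -0.11 to 0.34) and 0.05 over all 23587 matched peaks. The ratio was above 0 in 15 of the 26 pairs and below 0 in 11. With 1 pooled value per genotype these ratios have no replicate error, and no single ratio was tested.

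Only 1 of the 26 pairs passed 2-fold, upward (3.85%, with 6.91% of all matched peaks past 2-fold upward), and 0 passed it downward (6.05% of all). The exception was Rpl30, at 2.30 in WT and 10.5 in Tyrobp-/- mice, a log2 ratio of 2.19. The WT peak covered 119 bp and the Tyrobp-/- peak 504 bp, and a further Tyrobp-/- row of Rpl30 that overlaps both stood at 2.10, close to WT. With a reciprocal overlap of 50% of the exonic blocks, that pair was no longer formed and 0 pairs passed 2-fold.

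Among the other 25 pairs the log2 ratio ran from -0.81 to 0.66. Those lower in Tyrobp-/- mice included Rps10 (11.7 in WT and 6.67, log2 ratio -0.81), Rpl13a (5.06 and 3.19, -0.67), the 3′ UTR of Rpl28 (3.08 and 2.11, -0.55) and Rpl34 (5.86 and 4.29, -0.45). The peaks of Rps10 lay upstream of its gene and covered 328 bp in WT and 60 bp in Tyrobp-/- mice. Their log10 p-values were only -2.71 and -1.39. Rpl13a and Rpl34, both with peaks that reached into their first 50 bases, thus had lower values in Tyrobp-/- mice. Rpl38, a protein needed for translation of Hox mRNAs in the embryo, had the opposite order, 2.07 in WT and 3.27 in Tyrobp-/- mice (0.66). Its peak covered 21 of the first 50 bases in WT and all 50 in Tyrobp-/- mice. Rps15a stood at 3.18 in WT and 4.82 in Tyrobp-/- mice (0.60).

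**Figure D5:**
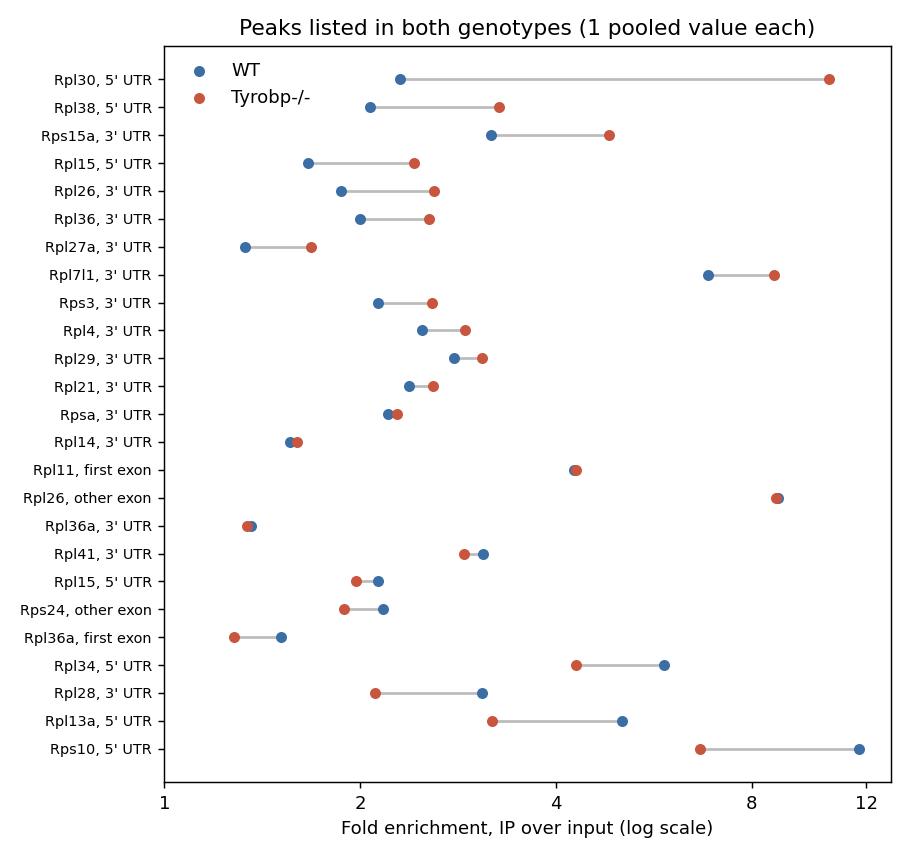
Fold enrichment of IP over input (x axis, log scale) of 25 of the 26 member peaks listed in both genotypes (y axis, gene and annotated class), WT in blue and Tyrobp-/- in red, ordered by their ratio, 1 pooled value each. Rpl30 at the top goes from 2.30 to 10.5, Rps10 at the bottom from 11.7 to 6.67, and most pairs lie close together. The peaks of Rpl30 and Rps10 lie upstream of their genes and have weak p-values.

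Of the peaks without a partner, 8 were in WT and 22 in Tyrobp-/- mice. A log10 p-value of -50 or below was reached by 1 of the 8 (12.5%, against 7.21% of all unpaired WT peaks) and 3 of the 22 (13.6%, against 7.04%). The strongest was the 3′ UTR of Rps6, whose protein is the substrate that gave the S6 kinases of the mTOR pathway their name. Its peak (chromosome 4, 86854660 to 86854810, minus strand, 151 bp) had a fold enrichment of 3.83 and a log10 p-value of -385 in Tyrobp-/- mice, and the WT list held no row of Rps6 and no row of any gene there.

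Rpl19, which bridges the subunits, had a 3′ UTR peak in Tyrobp-/- mice with 2.08-fold enrichment and a log10 p-value of -194 (chromosome 11, 98030375 to 98030492), and no WT row. Rps27 had 1.55-fold enrichment at -93.3, also in Tyrobp-/- mice alone. The WT list has no row for these peaks, so it gives no WT fold enrichment for them. The authors' list comparing the genotypes has rows at the peaks of Rps6 and Rpl19, whose fold changes were not used here.

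The remaining unpaired peaks in Tyrobp-/- mice had log10 p-values between -14.1 and -1.39. They included 2 overlapping rows of Rps25, a protein used in internal initiation, at 2.68 and 2.32, and Rps7 and Rpl23, which bind Mdm2, at 2.45 and 1.59. Both rows of Rps25 also overlapped the protein-coding gene Ccdc84. Rps23, at the decoding center, stood at 1.18 and Rps3a1 at 1.11, the lowest fold of any member. Unpaired peaks in WT included a 5′ UTR peak of Rpl28 at 1.70 and Rps18 at 1.68, upstream of its gene and over Vps52.

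The authors' list comparing the genotypes held 16 rows of 13 members, 0.284% of its 5640 rows. For scale, members held 34 of the 33622 WT peaks and 48 of the 34935 Tyrobp-/- peaks. The authors reported far fewer significantly differing peaks than this list has rows, so a row is not by itself a significant difference. The share of all protein-coding genes with a row there is not given here. Among the 13 members were Rpl7l1, Rpl19, Rpl22l1, Rpl32, Rpl36, Rpl36a, Rpl41, Rps6, Rps12 and Rps15a, with 1 row each, and Rpl28 and Rps25 with 2. The rows of Rps6, Rpl19, Rpl22l1, Rpl7l1 and Rps25 overlapped member peaks of the Tyrobp-/- list alone, and those of Rpl32 and the 5′ UTR of Rpl28 overlapped peaks of the WT list alone. Rows that overlapped a peak in both lists included Rpl36 (2.00 in WT and 2.55 in Tyrobp-/- mice) and Rpl36a (1.51 and 1.28 in its first exon).

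Rps12 had a row there and in neither genotype's list. That row (chromosome 10, 23785183 to 23785421) overlapped a Tyrobp-/- peak listed under Snora33, a small nucleolar RNA inside the span of Rps12, with 16.4-fold enrichment and a log10 p-value of -59.0. Of the 84 members, 30 (35.7%) had a RefSeq small nucleolar RNA inside their span, against 1.70% of all protein-coding genes. Of the 59 such RNAs, 3 had a row in WT (among them Gm26387 in Rpl5 and Snora78 in Rps2) and 2 in Tyrobp-/- mice (Gm26387 and Snora33). The Gm26387 row, within Rpl5, was 1.36-fold enriched in WT and 1.98-fold in Tyrobp-/- mice, so the loci of Rpl5, Rps2 and Rps12 had a peak under another name in at least 1 genotype. The span of Rpl18 was overlapped by rows of its neighbour Sphk2, 3.42-fold to 4.72-fold enriched in WT and 4.57-fold and 5.53-fold in Tyrobp-/- mice. The midpoints of the 4.72-fold WT row and the 4.57-fold Tyrobp-/- row lay outside that span.

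Several members had more than 1 peak, 5 in WT (among them Rpl15, Rpl26, Rpl28 and Rpl36a) and 13 in Tyrobp-/- mice. These are 17.2% and 38.2% of the members with a peak, whereas 59.7% and 61.3% of all protein-coding genes with a peak had more than 1. Some of the member rows overlap each other, and merging such rows left 33 WT and 45 Tyrobp-/- member peaks. The Tyrobp-/- genes were Rpl4, Rpl7l1, Rpl11, Rpl15, Rpl22l1, Rpl26, Rpl30, Rpl34, Rpl36a, Rpl41, Rps6, Rps24 and Rps25, with Rps24 at 3. Rpl36a had a first-exon peak at 1.51 in WT and 1.28 in Tyrobp-/- mice and a 3′ UTR peak at 1.36 and 1.34, so all its values were low. Both rows of Rpl15 in each list (2.13 and 1.66 in WT, 1.97 and 2.42 in Tyrobp-/- mice) shared bases with each other and with the neighbouring gene Nkiras1. Rpl11, which binds Mdm2 together with Rpl5 and the 5S rRNA, had a peak 20939 bp downstream of its gene in WT, at 4.27, and near the same place in Tyrobp-/- mice, at 4.29. In both genotypes this peak overlapped the long non-coding RNA gene LOC115489947.

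Rps24 illustrates how the peaks of a gene differed. An internal exon (chromosome 14, 24493338 to 24493607) had 2.17-fold enrichment in WT and 1.89-fold in Tyrobp-/- mice, at log10 p-values of -197 and -184 and with the same 270 bp in both. The first-exon peak at 3.02 and the exon peak at 7.62 were in the Tyrobp-/- list alone, at -3.54 and -1.64. The peak with the lowest fold was thus the one listed in both genotypes.

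The paralogs, which replace or resemble a canonical protein in some tissues, were listed unevenly. Rpl32l, also protein-coding in RefSeq and without a peak in either list, was not counted among them. Of the 6 counted, all protein-coding in RefSeq, Rpl7l1 had peaks in both genotypes, Rpl22l1 and the muscle form Rpl3l in Tyrobp-/- mice alone, and Rpl10l, Rpl39l and Rps27l in neither. The 3′ UTR peak of Rpl7l1 (chromosome 17, 46773907 to 46774504 in WT) covered 598 bp in WT and 628 bp in Tyrobp-/- mice, with 6.85-fold and 8.65-fold enrichment and a log10 p-value of -204 in both. Among member peaks at a log10 p-value of -100 or below it was the highest fold in each list. Rpl22l1 had 1.45-fold and 1.67-fold enrichment at its 2 peaks. Rps4l, which RefSeq calls a transcribed pseudogene, had no row.

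Processed pseudogenes named after members, which share sequence with them, had rows of their own. RefSeq names 316 such pseudogenes, for 63 of the 84 members, and 20 rows of them stood in the WT and 25 in the Tyrobp-/- list, with median folds of 8.30 and 8.58. Log10 p-values of these rows ran from -443 to -1.45 in WT and from -520 to -1.39 in Tyrobp-/- mice. Some of the folds thus rest on weak p-values. Among these pseudogenes, Rpl29-ps1 had 6.67-fold enrichment in WT and 8.19-fold in Tyrobp-/- mice, while Rpl29 itself had 2.79 and 3.08. Rps6-ps3 had 11.1 and 12, with a row in both genotypes, while Rps6 had rows in Tyrobp-/- mice alone. How reads that map to several places were treated is not given in the sources used here, and their part in these values was not tested.

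Other genes of translation and its control are given for comparison, without a test. Of 14 translation factors and related genes with TOP mRNAs, 7 had a peak in WT (50%) and 8 in Tyrobp-/- mice (57.1%). These shares were near the 56.8% and 58.2% of all protein-coding genes. Their highest folds included 23.4 and 21.9 for Tpt1, 9.49 and 9.95 for Eef1g, and 1.4 and 1.45 for Npm1, while Eef1a1 and Pabpc1 had no peak. Of 12 genes of mTOR signalling, 11 had one in each genotype, Rheb lacking it in WT and Mtor in Tyrobp-/- mice, and Larp1 had 4 peaks in each, up to 10 and 7.87. Of 12 ribosome biogenesis genes, 11 and 12 had one, with Fbl, the rRNA methyltransferase fibrillarin, up to 48.8 and 41.6. Of the ribosomal proteins under other names, Fau had a peak of 4.19 in WT alone, and Rack1 had none.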

How the data were processed

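MeRIP-seq libraries of WT and Tyrobp-/- hippocampus were analysed, 3 IP and 3 input libraries per genotype. The authors cleaned the reads with fastp and aligned them to GRCm38 (Ensembl 96) with HISAT2. Peaks came from exomePeak, run on the pooled replicates of a genotype, and their annotation from ChIPseeker. Per library, the authors deposited read counts (raw and valid) and the percent of valid, Q20, Q30 and G or C bases. Per peak, the authors deposited the fold enrichment (a ratio of IP over input), its p-value and the log10 of p and FDR. In the list comparing genotypes the authors deposited a log2 fold change, its p-value and FDR, which were not used, and only positions and annotation were taken from it.

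Members and gene lists were chosen with earlier results of these data known. Genes named are the P-stalk genes and Rpsa, the paralogs, the 10 highest member peaks of each list, members in the comparison list, members past 2-fold, members with at least 2 peaks, and members with none. Others named for a small p-value or as examples, such as Rpl21, Rpl29, Rps27, the pseudogenes and the pathway genes, were chosen after their values were seen. Peaks were matched by exonic blocks (mutual best) and log2 ratios of fold enrichment taken. Shares have exact Clopper-Pearson and medians order-statistic 95% intervals, which cover counting error only and treat peaks as independent. Pooled calling leaves no replicate error, so nothing was tested between genotypes. The libraries held 61189368 to 73554506 valid reads, and the depth behind a single peak is unknown. The RNA-seq kit marked strand, but whether peak calling used it is not given in the sources used here. Genes were placed with RefSeq on GRCm38, and all listed member symbols matched. Computations used scipy 1.17.1 and pandas 2.3.3 in Python 3.11.15, with figures from matplotlib 3.10.9, and the matching was tested on simulated data. Alternatives were a peak-calling FDR below 1e-05, a minimum fold enrichment of 4, paralogs left out, 1 peak per gene, other overlaps, centring and a 1.5-fold limit. Peaks inside the gene's RefSeq span and merged overlapping rows were added after seeing the data. Values of some members are not reported here, though the counts over members include them.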

Additional observations from a re-analysis of the deposited data

How the results depend on the processing

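With a minimum fold enrichment of 4, the WT list kept 11 member genes and 11 peaks, and the Tyrobp-/- list 11 genes and 12 peaks. Past 2-fold, the single matched pair became 0 with a reciprocal overlap of 50%, and a 1.5-fold limit gave 5 pairs, 3 higher (Rps15a, Rpl38 and Rpl30) and 2 lower (Rps10 and Rpl13a), which is 19.2% of the member pairs against 29.2% of all matched peaks. The other alternatives left the counts within 1.5 times and the medians and shares within their intervals. With a peak-calling FDR below 1e-05, 22 WT and 27 Tyrobp-/- member genes were left, and the 3′ UTR share was 59.3% and 64.7%. Inside the genes' own RefSeq spans, an alternative chosen after seeing the data, 22 and 31 genes had a peak, with median folds of 2.21 and 2.55. The 3′ UTR share of the member peaks inside these spans was 64% and 61.5%. The shares of all peaks under either of these alternatives are not given here. Subtracting the median of all matched peaks moved the median log2 ratio from 0.04 to -0.01, within its interval. No paired analysis was possible because the peaks of each genotype were called on pooled replicates, and no library could be left out for the same reason. Depth limits which peaks were listed, and a peak absent from 1 list has no value there.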
